A study of Mus musculus with 9 samples.

Results

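The genes described here are 8 effectors of cell killing: *Gzma*, *Gzmb*, *Prf1*, *Nkg7*, *Ctsw*, *Fasl*, *Serpinb9* and *Serpinb6b*. They were taken by gene symbol from a table of 21883 genes, and each symbol matched 1 gene model. These genes and the gene lists below were chosen with earlier results of these data known. The study looked at how the loss of Med23, a subunit of the Mediator complex that connects transcription factors with RNA polymerase II, bears on the maturation of invariant natural killer T (iNKT) cells in the mouse thymus. RNA was sequenced from sorted thymic iNKT cells in 9 libraries, 3 in each of 3 groups. WT stage 2 and WT stage 3 cells came from wild-type C57BL/6 mice, given as 6 weeks old, and were told apart in the sort by NK1.1, low at stage 2 and high at stage 3, both with low CD24 and high CD44. *Med23*-deficient stage 2 cells came from mice with floxed *Med23* alleles, backcrossed to the same strain, and a *Cd4*-Cre transgene. Their age is not given in the labels, and the methods name mice of both sexes between 5 and 12 weeks of age for all experiments. *Cd4*-Cre acts from the double-positive thymocyte onward, so the allele is deleted in the other T cells of these mice as well. The methods describe the data as representative of 3 independent experiments, and a figure caption on the WT profiles gives at least 3, combined. Neither the methods, this caption nor the labels say that the 3 libraries of a group came from separate animals. Every p-value below therefore measures the spread between these libraries, which may be technical.

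Cytotoxic lymphocytes kill in a pair of ways. Granules release perforin, which opens the target cell membrane, and granzymes, serine proteases that enter through it, while Fas ligand on the cell surface triggers death through the Fas receptor of the target. The killer cell protects itself with serpins that trap granzymes in the cytosol, and in the thymus iNKT cells acquire much of this equipment together with NK cell receptors as they pass to their last stage.

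Levels are given in FPKM, fragment counts scaled for transcript length and for all mapped fragments, and can be set beside each other between genes. Read counts are not in the table, which leaves the sequencing depth unknown, and no limit of detection can be put on a value of 0. The number of genes above 0 ran from 15584 to 17333 per library. Summed over the 8 genes, WT stage 2 libraries held 201, 277 and 198 FPKM, WT stage 3 libraries 769, 775 and 705, and *Med23*-deficient stage 2 libraries 185, 211 and 278. Each stage 3 sum was thus above every stage 2 sum of either genotype, while the sums of the stage 2 groups overlapped.

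The targeted gene, *Med23* (ENSMUSG00000019984, mm10 chromosome 10, 24869986 to 24913681), had FPKM of 5.51, 5.15 and 6.74 in WT stage 2, of 7.14, 4.44 and 6.12 in WT stage 3 and of 4.80, 3.60 and 3.92 in *Med23*-deficient stage 2. The deficient libraries lay below all WT stage 2 libraries but overlapped WT stage 3. The log2 difference from WT stage 2 was -0.41 ± 0.18 (SE, 3 libraries against 3; limma adjusted p 0.552). FPKM pool all exons of a gene, so transcripts that lack the floxed part are counted with intact ones.

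The labels were set against marker genes. *Klrb1c*, which encodes NK1.1, had 16.3, 26.2 and 7.65 FPKM in WT stage 2 cells, 95.1, 57.3 and 72.7 in WT stage 3 cells and 4.60, 2.61 and 3.04 in *Med23*-deficient stage 2. Between WT stages it therefore followed the sort. The deficient libraries lay below both WT groups, so the 2 groups labelled stage 2 differed in this stage marker. *Zbtb16*, the gene of the iNKT lineage factor PLZF, was at 112, 88.0 and 103 in WT stage 2, at 22.7, 33.4 and 26.4 in WT stage 3 and at 90.9, 75.3 and 68.1 in the deficient cells. The 12 markers of iNKT cells and their stages were all in the table and summed to between 1362 and 1823 FPKM per library, with the T cell receptor gene *Trac* the most abundant at a mean of 327. *Cd24a* reached at most 0.72.

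Markers of other cells were low, with some exceptions that move with a group. Of 5 NK cell markers, 4 were in the table (*Ncr1* was not analysed) and they summed to 2.95, 2.16 and 2.20 FPKM in WT stage 2, to 12.7, 19.9 and 13.3 in WT stage 3 and to 4.28, 4.17 and 5.73 in the deficient cells. Most of the stage 3 sum came from *Klre1*, an NK cell receptor gene and the most abundant of the list at a mean of 3.66, with 9.83, 14.1 and 8.47 FPKM in WT stage 3, 0, 0 and 0.58 in WT stage 2 and 0 in the deficient libraries. *Irf8* was highest in WT stage 3 too, at 1.81, 2.58 and 2.29 FPKM. It had 1.48, 0.66 and 0.72 in WT stage 2 and 0.06, 0.16 and 0.81 in the deficient cells. *Itga2*, an integrin gene, went another way, with 1.23, 1.5 and 0.90 FPKM in WT stage 2, 1.08, 3.25 and 2.57 in WT stage 3 and 4.22, 4.01 and 4.92 in the deficient cells, where it made up most of the sum. The NK cell factor *Eomes* was at 0.24 in WT stage 2 replicate 1 and at 0 in the other 8 libraries. Their part in the levels of the 8 genes was not tested. The paper identifies iNKT cells by TCRβ and a CD1d tetramer, a gate for cells with a T cell receptor. All 5 gamma-delta T cell markers were in the table, and their sum was 304, 325 and 296 FPKM in WT stage 2, 295, 299 and 259 in WT stage 3, but 9.11, 8.70 and 8.91 in the deficient cells. *Tcrg-C2* was the most abundant at a mean of 85.5, whereas *Trdc*, the constant gene of the delta chain, did not exceed 0.38 in any library. *Tcrg-C1*, *Tcrg-C2* and *Tcrg-C4* were each lower in the deficient cells without overlap. *Sox13* was not, at 4.32, 2.69 and 2.10 FPKM there. It had 4.05, 5.07 and 1.95 in WT stage 2 and 1.31, 0.98 and 0 in WT stage 3. The part of the difference in this sum in the results on the 8 genes was not tested either. The 7 markers of double-positive and CD8 thymocytes summed to between 1.67 and 4.99 FPKM, with *Rag1* the most abundant at a mean of 0.978. B cell markers (3 of 6 in the table, *Cd79b* at 0.0878) reached 0.51, myeloid markers (3 of 9, in 4 gene models, *Lyz2* at 0.404) 1.69 and erythroid markers (1 of 4, *Hbb-bs* at 0.0889) 0.75 in the library with the most. The 5 mast cell markers were not analysed. In bulk libraries such as these, fewer cells of a type and less RNA per cell cannot be told apart.

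**Figure D1:**
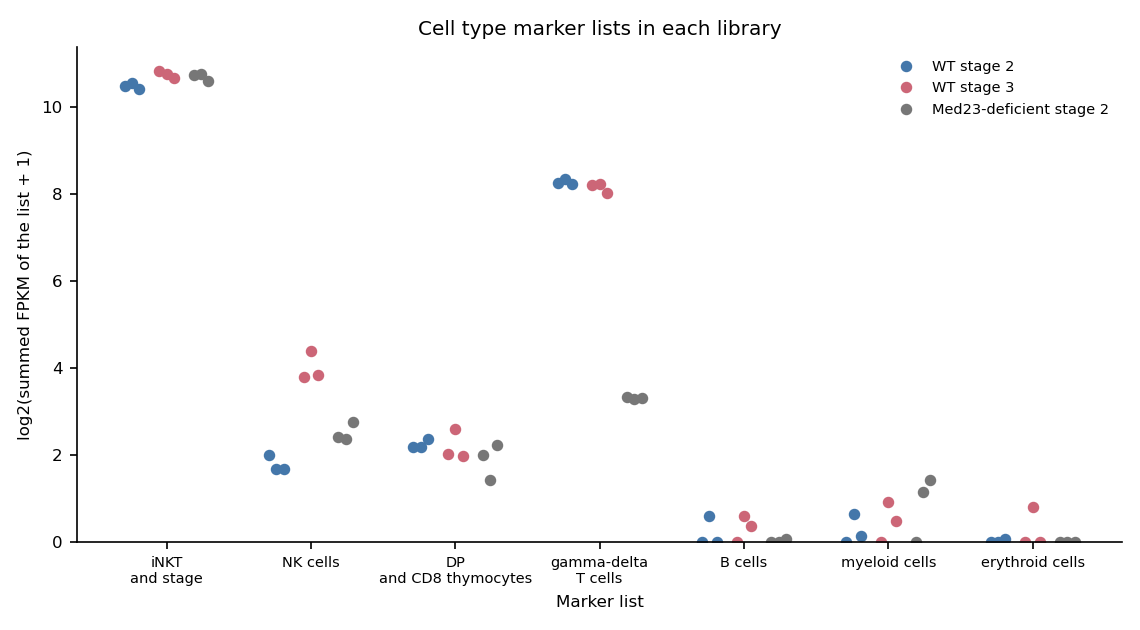
Summed FPKM of each list of marker genes in each library, as log2(sum + 1), with a point for each library and the 3 groups in separate colours. The NK cell sum is higher in WT stage 3 (12.7 to 19.9 FPKM) than in the other libraries (5.73 or less), and the gamma-delta sum is at most 9.11 FPKM in *Med23*-deficient cells and 259 or more in WT cells.

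Among the granzymes, *Gzma* (ENSMUSG00000023132, mm10 chromosome 13, 113093825 to 113100979, minus strand) encodes a tryptase of the granule. The WT stage 2 libraries had 0, 0 and 1.5 FPKM, the WT stage 3 libraries 41.4, 29.5 and 17.6, and *Gzma* was listed at 0 in all 3 *Med23*-deficient libraries. Every stage 3 library was far above the others, and WT stage 2 replicate 3 was the only stage 2 library of either genotype with a value above 0. *Gzmb* (ENSMUSG00000015437, chromosome 14, 56258856 to 56262260, minus strand) encodes the granzyme that cleaves after aspartate and activates caspases. Its levels were 11.4, 14.4 and 10.2 FPKM in WT stage 2, 149, 211 and 164 in WT stage 3 and 4.2, 7.01 and 7.55 in the deficient cells. Here the 3 groups were separate, with stage 3 highest and the deficient libraries lowest. *Prf1* (ENSMUSG00000037202, chromosome 10, 61297836 to 61304263, plus strand), the perforin gene, had 2.01, 3.79 and 2.01 FPKM in WT stage 2, 17.1, 14.7 and 17.5 in WT stage 3 and 0.43, 0.72 and 0.55 in the deficient cells. The order was the same as for *Gzmb*, again with no overlap between groups.

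The promoters of these 3 genes and of *Fasl*, described further on, are shown because all 4 rose between WT stages and their windows lie outside their gene models. Windows of 250 bases before the RefSeq start (GRCm38.p6) were found for 7 of the 8 genes, not for *Ctsw*. Each is given 5′ to 3′ on the gene's strand, at chr13:113100982-113101231 (minus) for *Gzma*, chr14:56262335-56262584 (minus) for *Gzmb*, chr10:61297586-61297835 (plus) for *Prf1* and chr1:161788496-161788745 (minus) for *Fasl*. Capitals mark matches to the motifs searched on both strands, which were GGTGTGA for T-box factors, TGTGGT for Runx factors, TTCNNNGAA for STAT factors and TGANTCA for AP-1.
Gzma: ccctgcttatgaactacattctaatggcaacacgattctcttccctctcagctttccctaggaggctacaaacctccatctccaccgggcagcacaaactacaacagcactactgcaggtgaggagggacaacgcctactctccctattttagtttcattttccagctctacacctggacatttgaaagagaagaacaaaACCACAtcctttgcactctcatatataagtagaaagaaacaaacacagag
Gzmb: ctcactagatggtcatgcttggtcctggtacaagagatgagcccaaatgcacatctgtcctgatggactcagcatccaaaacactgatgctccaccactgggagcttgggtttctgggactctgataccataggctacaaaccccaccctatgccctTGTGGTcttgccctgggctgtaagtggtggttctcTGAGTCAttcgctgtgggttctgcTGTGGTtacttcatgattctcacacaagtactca
Prf1: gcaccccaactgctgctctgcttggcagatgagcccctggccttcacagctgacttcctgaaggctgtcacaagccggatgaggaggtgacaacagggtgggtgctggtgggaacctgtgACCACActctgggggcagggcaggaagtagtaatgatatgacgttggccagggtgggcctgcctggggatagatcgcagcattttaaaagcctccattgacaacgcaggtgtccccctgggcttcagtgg
Fasl: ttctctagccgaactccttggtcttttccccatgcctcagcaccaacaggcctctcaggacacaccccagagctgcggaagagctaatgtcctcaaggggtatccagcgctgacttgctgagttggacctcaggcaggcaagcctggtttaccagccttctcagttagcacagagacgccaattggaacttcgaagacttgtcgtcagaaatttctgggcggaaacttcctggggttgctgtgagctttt

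The Runx letters occurred in 4 of the 7 windows. The *Gzma* window held them on the other strand (50 to 45 bases before the start), the *Gzmb* window held them on the gene's strand at both 93 to 88 and 34 to 29 bases, and the *Prf1* window on the other strand at 130 to 125 bases. Of all 32851 windows of this length, 4614 (14%) contained this motif. The AP-1 letters were found in the *Gzmb* window alone among the 7, as TGAGTCA at 58 to 52 bases, and in 6.75% of all windows. In the *Nkg7* window, which reaches 65 bases into the gene model of the table, 3 of the motifs were present: STAT at 220 to 212 bases as TTCCAGGAA, Runx on the other strand at 83 to 78 and T-box at 13 to 7. The STAT letters were in 7.02% and the T-box letters in 3.33% of all windows. No match overlapped another, and the windows of *Fasl*, *Serpinb9* and *Serpinb6b* held none of these letters. The *Serpinb9* window lies with all its 250 bases inside the gene model of the table and that of *Serpinb6b* with 52. A match of letters is a description and not evidence of binding.

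A pair of further granule genes was abundant already at stage 2. *Nkg7* (ENSMUSG00000004612, chromosome 7, 43437073 to 43438249, plus strand) encodes a granule membrane protein needed for degranulation. It had 24.1, 44.9 and 28.2 FPKM in WT stage 2 libraries, 194, 159 and 141 in WT stage 3 libraries and 34.6, 65.8 and 54.3 in the deficient cells. Stage 3 was highest and the stage 2 groups overlapped. *Ctsw* (ENSMUSG00000024910, chromosome 19, 5465240 to 5468498, minus strand) encodes cathepsin W, a cysteine protease of cytotoxic lymphocytes. Its levels were 139, 171 and 109 FPKM in WT stage 2, 266, 245 and 223 in WT stage 3 and 111, 97.1 and 141 in the deficient cells, so that again only stage 3 stood apart.

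*Fasl* (ENSMUSG00000000817, chromosome 1, 161780689 to 161788495, minus strand), the gene of Fas ligand, is the member outside the granule pathway proper. It had 9.34, 17.7 and 19.0 FPKM in WT stage 2 libraries, 49.5, 59.6 and 68.1 in WT stage 3 and 17.9, 14.6 and 35.7 in the deficient cells. The 3 stage 3 libraries were above the rest, and the deficient libraries spread across and above the WT stage 2 range, with replicate 3 the highest.

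Serpins are the inhibitors of the set. *Serpinb9* (ENSMUSG00000045827, chromosome 13, 33003250 to 33017957, plus strand) encodes an inhibitor of granzyme B and had 3.35, 6.70 and 7.57 FPKM in WT stage 2, 16.8, 22 and 25.0 in WT stage 3 and 7.13, 8.66 and 13.6 in the deficient cells. *Serpinb6b* (ENSMUSG00000042842, chromosome 13, 32965209 to 32979067, plus strand), whose product inhibits granzyme A, was at 12.3, 18.8 and 20.9 in WT stage 2, 34.6, 34.4 and 49.0 in WT stage 3 and 9.73, 17.3 and 25.6 in the deficient cells. In both, stage 3 was above all other libraries and the stage 2 groups overlapped. These genes are neighbours on chromosome 13, with 24182 bases and no other gene model of the table between them. Of the 2298 stretches of 50 bases in *Serpinb6b* transcripts, 67 (2.92%) also occur in transcripts of *Serpinb6c*, *Gm8436* or *Serpinb6a*, and 13 of 3442 (0.378%) in *Serpinb9* are shared with *Serpinb9b*. For the other 6 genes, 0 such stretches are shared with another gene.

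**Figure D2:**
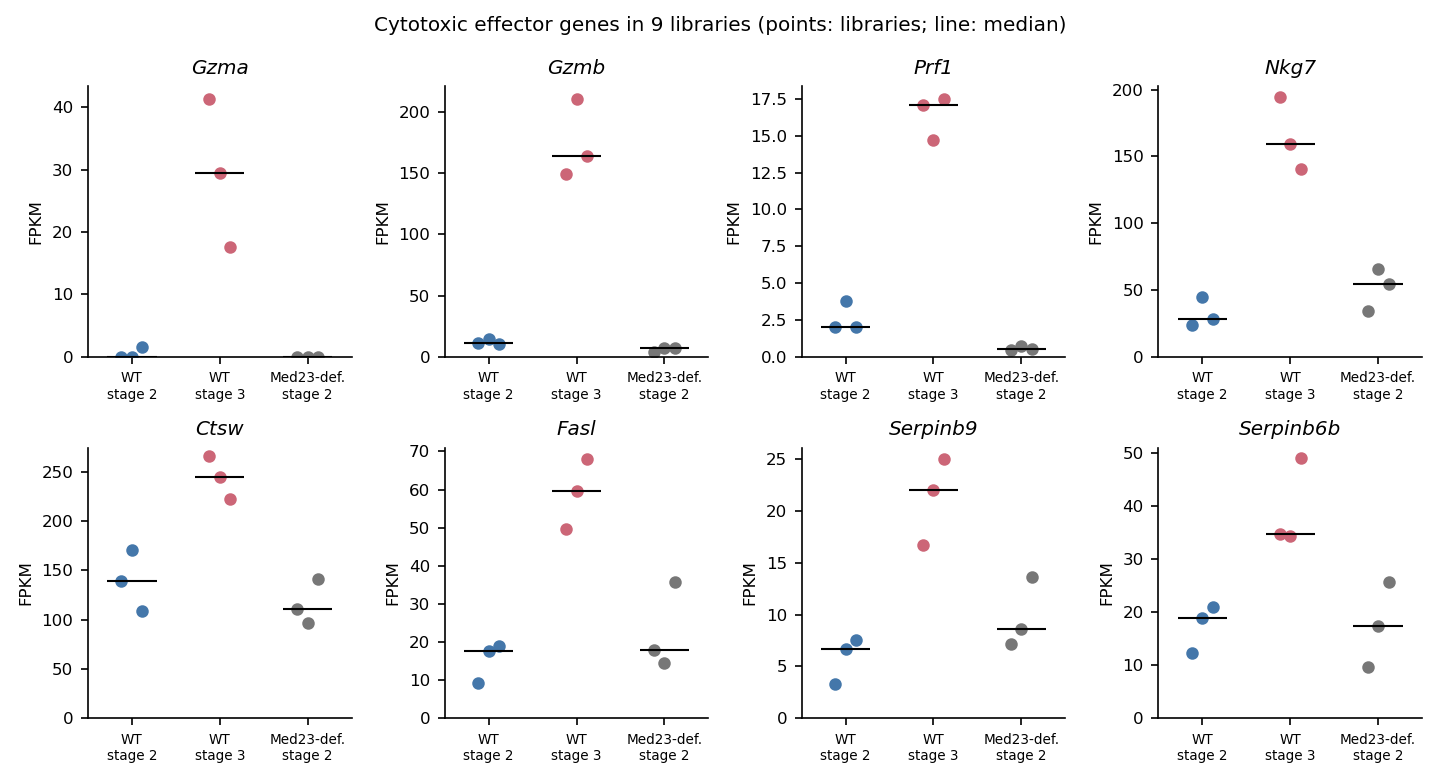
FPKM of the 8 genes in the 9 libraries, each gene on its own linear axis from 0, with each point a library and the line the median of a group. In every gene the lowest WT stage 3 library lies above the highest library of both stage 2 groups, and *Gzmb* and *Prf1* are lowest in the *Med23*-deficient libraries.

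By level, *Ctsw* led in each group, with a mean of 140 ± 30.9 FPKM (SD, n = 3) in WT stage 2, 245 ± 21.7 in WT stage 3 and 116 ± 22.4 in the deficient cells. In WT stage 2 it was followed by *Nkg7* (32.4 ± 11), then by *Serpinb6b* (17.3 ± 4.5), *Fasl* (15.3 ± 5.22) and *Gzmb* (12 ± 2.18), whose neighbouring ranges overlapped, and by *Serpinb9* (5.87 ± 2.23) and *Prf1* (2.60 ± 1.03), which overlapped too, with *Gzma* last. In WT stage 3, *Gzmb* (175 ± 32.2) came up beside *Nkg7* (165 ± 27.2) with overlapping ranges. *Fasl* (59.1 ± 9.30) was separate from both sides, and the ranges of *Serpinb6b* (39.3 ± 8.36), *Gzma*, *Serpinb9* (21.3 ± 4.19) and *Prf1* (16.4 ± 1.5) ran into each other. In the deficient cells each neighbouring pair from *Nkg7* (51.5 ± 15.8) through *Fasl* (22.7 ± 11.4), *Serpinb6b* (17.6 ± 7.93) and *Serpinb9* (9.79 ± 3.38) to *Gzmb* (6.25 ± 1.80) overlapped, while *Prf1* (0.567 ± 0.146) lay below them and *Gzma* was listed at 0.

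The make-up of the summed level differed as well. *Ctsw* made up 69.0, 61.7 and 55.0% of the 8-gene sum in WT stage 2 and 59.9, 46.0 and 50.7% in the deficient cells, but 34.6, 31.6 and 31.6% in WT stage 3. The share of *Gzmb* was 5.64, 5.2 and 5.13% in WT stage 2, 19.4, 27.2 and 23.3% in WT stage 3 and 2.28, 3.32 and 2.71% in the deficient cells. *Nkg7* held 12, 16.2 and 14.2% in WT stage 2, 25.3, 20.5 and 19.9% in WT stage 3 and 18.7, 31.1 and 19.5% in the deficient cells. Thus the *Gzmb* share separated all 3 groups, whereas that of *Nkg7* in the deficient cells reached both below and above the stage 3 range.

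WT stage 3 was compared with WT stage 2 to describe the last step of maturation in the thymus. All 8 genes had higher levels at stage 3, from 1.75 times the mean for *Ctsw* to 14.6 times for *Gzmb*, and still more for *Gzma*, which was close to 0 at stage 2. *Gzma*, *Gzmb*, *Prf1*, *Nkg7* and *Fasl* rose past an adjusted p of 0.05. Differences below are in log2(FPKM + 1), tested with limma over 20689 genes and adjusted after Benjamini-Hochberg, with 3 libraries against 3. *Gzma* rose by 4.41 ± 0.47 (SE; adjusted p 0.0190), a value that depends on the pseudocount since stage 2 is near 0. *Gzmb* rose by 3.76 ± 0.18 (95% interval 3.32 to 4.19; adjusted p 0.00368) and *Prf1* by 2.31 ± 0.22 (1.76 to 2.85; adjusted p 0.0160). For *Nkg7* the rise was 2.35 ± 0.25 (1.74 to 2.95; adjusted p 0.0188), 5.09 times in FPKM, and for *Fasl* 1.93 ± 0.28 (1.25 to 2.60; adjusted p 0.0399), 3.85 times. The *Fasl* call was lost with every library scaled to the same sum of FPKM (1.83; limma adjusted p 0.0669).

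The inhibitors and *Ctsw* did not pass that test. *Serpinb9* differed by 1.74 ± 0.30 (interval 1.02 to 2.46; limma adjusted p 0.0561), *Serpinb6b* by 1.15 ± 0.24 (0.58 to 1.73; adjusted p 0.0878) and *Ctsw* by 0.83 ± 0.18 (0.39 to 1.26; adjusted p 0.1), each higher in 3 of 3 stage 3 libraries than in every stage 2 library. By adjusted p, 5 of the 8 genes were higher and 0 lower, against 0.759% and 0.914% of all genes. When called by a 2-fold or larger change with an unadjusted p up to 0.05 they were 7 and 0, against 1.7% and 1.9%, with *Ctsw* the exception. With groups that do not overlap they were 8 and 0, against 7.36% and 10.4%. Since the 8 genes were chosen with earlier results of these data known, these shares are a description and not independent support. The median difference of the 8 genes was 2.12, beside -0.01 over all genes. The number past the adjusted p was 4 without WT stage 2 replicate 1, 3 without replicate 2, 2 without replicate 3 and 1 without any 1 of WT stage 3 replicates 1, 2 and 3, with *Gzmb* past it in each. Over all genes the 346 calls became 130, 137 and 35 without WT stage 2 replicates 1, 2 and 3, and 76, 41 and 22 without those of WT stage 3, with 5 in the Ballgown-style model, 496 among genes averaging 1 FPKM or more and 600 with all 9 libraries in 1 fit. The number among the 8 genes was 8 when only genes averaging 1 FPKM or more were tested and 0 in an ordinary linear model per gene in the style of Ballgown, where 7 still met the fold and p rule with differences of 1.63 (*Serpinb6b*) to 5.08 (*Gzma*). With replicate number as a block, only *Gzmb* passed (limma adjusted p 0.0139). An exact permutation test of 3 against 3 libraries cannot give a p below 0.1.

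**Figure D3:**
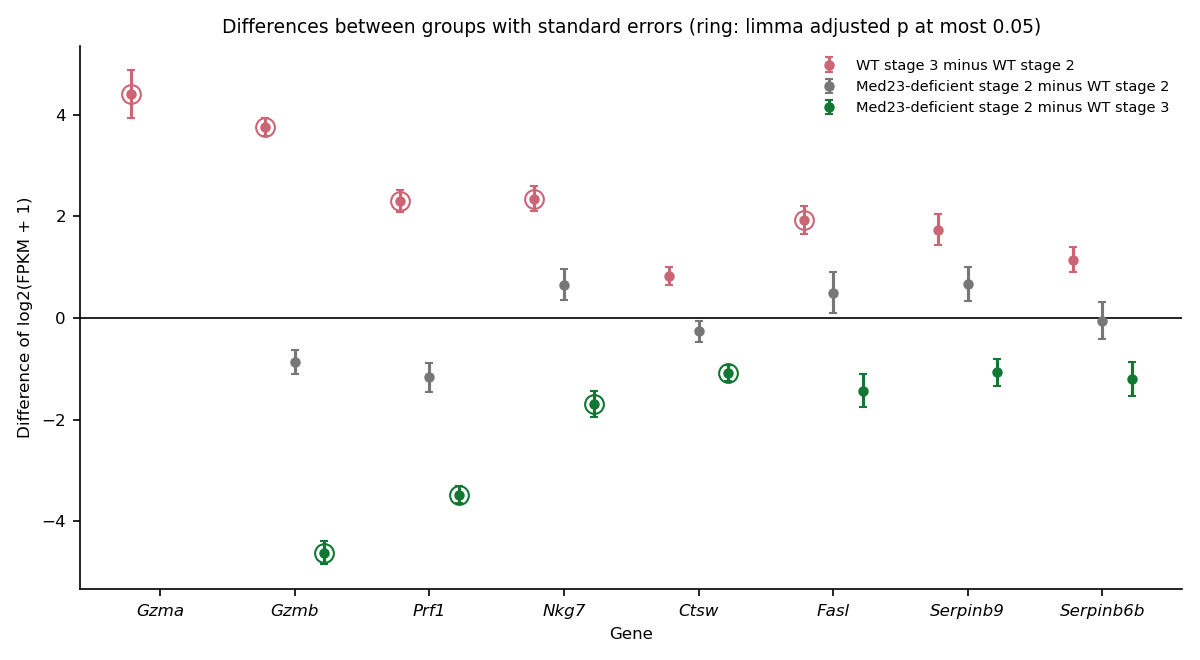
Differences in log2(FPKM + 1) of the 8 genes in the 3 comparisons, with points for the estimates, bars for 1 standard error either way and rings for a limma adjusted p of at most 0.05; *Gzma* is drawn only between WT stages, since it is listed at 0 in *Med23*-deficient cells. All differences between WT stages lie above 0 and all differences of the deficient cells from WT stage 3 below 0, while those between the stage 2 groups run from -1.17 (*Prf1*) to 0.67 (*Serpinb9*).

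Among the pathway genes around them, of 8 other granzyme genes looked up, *Gzmc* and *Gzmm* were in the table, and *Gzmm* did not exceed 0.78 FPKM in any library. *Gzmc*, 24199 bases from *Gzmb* on chromosome 14, had 0, 0.98 and 0 FPKM in WT stage 2 libraries, then 3.01, 4.61 and 3.60 in WT stage 3 (difference 1.90 ± 0.35; adjusted p 0.0701). None of the 11 granule contents and processing genes (median -0.31), the 25 genes of granule transport and exocytosis (-0.07), the 11 of death ligands and their pathway (0.11), the 5 related serpins (0.08, or 0.40 without *Serpinb6c*, listed at 0 throughout WT stage 2) or the granzyme pair (1.09) passed the adjusted p in limma. At an unadjusted p of at most 0.05 the counts were 2, 6, 3, 2 and 1 in that order, beside 13.2% of all genes, and the Ballgown-style model called 0 in each. Named after their values were seen, these were *Ctsb* and *Igf2r* of the granule contents, both lower at stage 3, *Dock2*, *Wipf1*, *Lyst*, *Sytl2*, *Stx7* and *Sytl3* of the transport genes, all 6 higher, *Fas* and *Lta* (lower) and *Tnfsf10* (higher) of the death ligand genes, *Serpinb1a* (lower) and *Serpina3g* (higher) of the serpins, and *Gzmc* (higher). The most abundant genes of these lists were *Calr*, the chaperone calreticulin, at 203 ± 25.5 FPKM (SD, n = 3) in WT stage 2 and 164 ± 25.8 in WT stage 3, *Coro1a*, an actin regulator, at 119 ± 7.04 and 113 ± 13.5, *Ltb*, the lymphotoxin beta gene, at 49.5 ± 5.83 and 58.0 ± 15.5, and *Serpina3g* at 2.27 ± 0.913 and 7.89 ± 3.57.

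Of 12 transcription factors known for cytotoxic genes, 3 were higher and 0 lower by adjusted p in limma, against 0.759% and 0.914% of all genes. By direction alone 8 were above 0 and 4 below, with a median of 0.85 (0.87 without *Eomes*, listed at 0 throughout WT stage 3). An unadjusted p of at most 0.05 was reached by 10, 8 higher and 2 lower, beside 13.2% of all genes. The 2 lower, named after their values were seen, were *Runx1* (-0.66 ± 0.14; limma adjusted p 0.1) and *Stat5b* (-0.65 ± 0.18; adjusted p 0.184), each without overlap between groups. *Zfp683*, which encodes Hobit, had 47.9, 46.0 and 48.2 FPKM in WT stage 2 libraries and 124, 111 and 101 in WT stage 3, a rise of 1.22 ± 0.10 (limma adjusted p 0.0100). *Runx3*, a factor of CD8 and NK cell killing, went from 37.5, 50.1 and 38.8 to 76.1, 75.8 and 79.1 FPKM (0.87 ± 0.12; adjusted p 0.0399). *Bhlhe40* was at 4.19, 7.32 and 4.64 and at 19.6, 24.5 and 19.3 FPKM (1.82 ± 0.21; adjusted p 0.0239). In all 3 genes the stage 3 libraries were above the stage 2 libraries without overlap. *Id2*, whose product binds and inhibits E proteins, was the most abundant at a mean of 302 over the 9 libraries and had 259, 287 and 254 FPKM at stage 2 and 482, 413 and 404 at stage 3 (0.70 ± 0.11; adjusted p 0.0515). *Stat4*, which acts downstream of interleukin signals, had 3.76, 8.79 and 9.35 FPKM and 28.7, 24.2 and 28.1 (1.83 ± 0.31; adjusted p 0.0561). None of the 3 calls held in the Ballgown-style model. With every library scaled to the same sum of FPKM those of *Runx3* and *Bhlhe40* were lost, and with *Gm23935*, the most abundant gene model, left out of that sum that of *Runx3* was. With a library left out, *Zfp683* was called in 4 of 6 fits, all but those without WT stage 2 replicate 3 and WT stage 3 replicate 2, and *Runx3* and *Bhlhe40* each in 1, the fit without WT stage 2 replicate 2, with differences of 1.12 to 1.30, 0.77 to 0.99 and 1.68 to 2.10 over all alternatives.

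*Med23*-deficient stage 2 was compared with WT stage 2 to see what loss of *Med23* changes at the same labelled stage. *Prf1* was 4.59 times lower by mean FPKM and *Gzmb* 1.91 times lower, each with no overlap between groups, and *Gzma*, at 1.5 FPKM in 1 WT library, was listed at 0. The stage marker *Klrb1c* was 4.9 times lower as well, without overlap, and its part in these differences was not tested. *Nkg7*, *Fasl* and *Serpinb9* had higher means in the deficient cells, by 1.59, 1.48 and 1.67 times, with overlapping groups, and *Ctsw* and *Serpinb6b* were close to the WT means. None of the 8 genes passed an adjusted p of 0.05 in limma over 20674 genes. Of these genes, 2 had an unadjusted p of at most 0.05, *Prf1* and *Gzmb*, beside 9.58% of all genes, and the Ballgown-style model called 0. The difference was -1.17 ± 0.28 for *Prf1* (SE; 95% interval -1.86 to -0.48; limma adjusted p 0.230) and -0.86 ± 0.24 for *Gzmb* (-1.44 to -0.28; adjusted p 0.301), lower in 3 of 3 deficient libraries. With a pseudocount of 0.1 the difference of *Prf1*, which is below 1 FPKM in the deficient cells, was -1.98.

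Intervals of the remaining genes included 0. They ran from -0.10 to 1.41 for *Nkg7* (difference 0.66), from -0.47 to 1.46 for *Fasl* (0.50), from -0.16 to 1.49 for *Serpinb9* (0.67), from -0.76 to 0.25 for *Ctsw* (-0.26) and from -0.94 to 0.84 for *Serpinb6b* (-0.05). Without *Med23*-deficient replicate 3 the difference was 0.13 for *Fasl* and 0.43 for *Serpinb9*, and without WT stage 2 replicate 1 it was 0.19 and 0.37. For *Ctsw* it ran from -0.42 to -0.10 over the fits that leave out a library. Adjusted p values in limma lay between 0.579 for *Nkg7* and 0.967 for *Serpinb6b*. These intervals leave room for changes of over 2 times in *Nkg7*, *Fasl* and *Serpinb9*, so a lack of calls does not show that levels were equal. By adjusted p, 0 genes were higher and 0 lower, against 0.0677% and 0.145% of all genes. These shares rest on 44 calls, which became 3, 1 and 3 without WT stage 2 replicates 1, 2 and 3, and 4, 6 and 8 without those of the deficient cells, with 1 in the Ballgown-style model, 143 among genes averaging 1 FPKM or more and 162 with all 9 libraries in 1 fit. By fold and unadjusted p, 0 were higher and 1 lower (*Prf1*), against 0.798% and 1.32%. With groups that do not overlap, 0 were higher and 2 lower (*Gzmb* and *Prf1*), against 5.63% and 8.37%. The median over the 7 genes other than *Gzma* was -0.05, beside -0.01 over all genes. Without WT stage 2 replicate 2, which has the highest *Prf1* value of its group, *Prf1* differed by -0.95 and 0 genes met the fold and p rule. In the Ballgown-style model 3 met it, *Prf1* lower (-1.14) and *Fasl* and *Serpinb9* higher (1.23 and 1.2).

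Among the lists, 1 gene passed the adjusted p in this comparison, beside 0.0677% higher and 0.145% lower of all genes. *Sytl2*, whose product tethers Rab27a-bearing granules to the membrane, had 5.36, 5.39 and 6.07 FPKM in WT stage 2 libraries and 14.1, 12.6 and 14.6 in the deficient cells, without overlap, a rise of 1.16 ± 0.12 (limma adjusted p 0.0415). In WT stage 3 it was at 10.9, 11.8 and 16.6, on both sides of the deficient values (1.07 ± 0.18 against WT stage 2; adjusted p 0.0551). The *Sytl2* call was lost with libraries scaled to the same sum, with or without *Gm23935*, in the Ballgown-style model and in each of the 6 fits that leave out a library, with a difference of 1.04 to 1.28 and an adjusted p of 0.0155 to 0.256 over all alternatives. The other 24 genes of granule transport did not pass, and the list had a median of -0.00. At an unadjusted p of at most 0.05 there were 5, beside 9.58% of all genes. Named after their values were seen, *Wipf1*, *Unc13d*, *Sytl2* and *Stx7* were higher and *Sytl1* lower. Medians of the remaining lists were 0.16 for the granzyme pair, -0.02 for granule contents, 0.03 for the death ligand pathway, -0.50 for 4 related serpins and 0.19 for the 12 transcription factors (0.35 without *Eomes*). Each of these had 0 calls in limma, with 0, 2, 2, 1 and 3 genes at an unadjusted p of at most 0.05, and 0 calls in the Ballgown-style model. These genes, named after their values were seen, were *Lamp1* (higher) and *Lamp2* (lower), *Tnf* (higher) and *Fas* (lower), *Serpinb1a* (lower), and *Id2* (lower), *Zfp683* and *Runx3* (both higher).

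**Figure D4:**
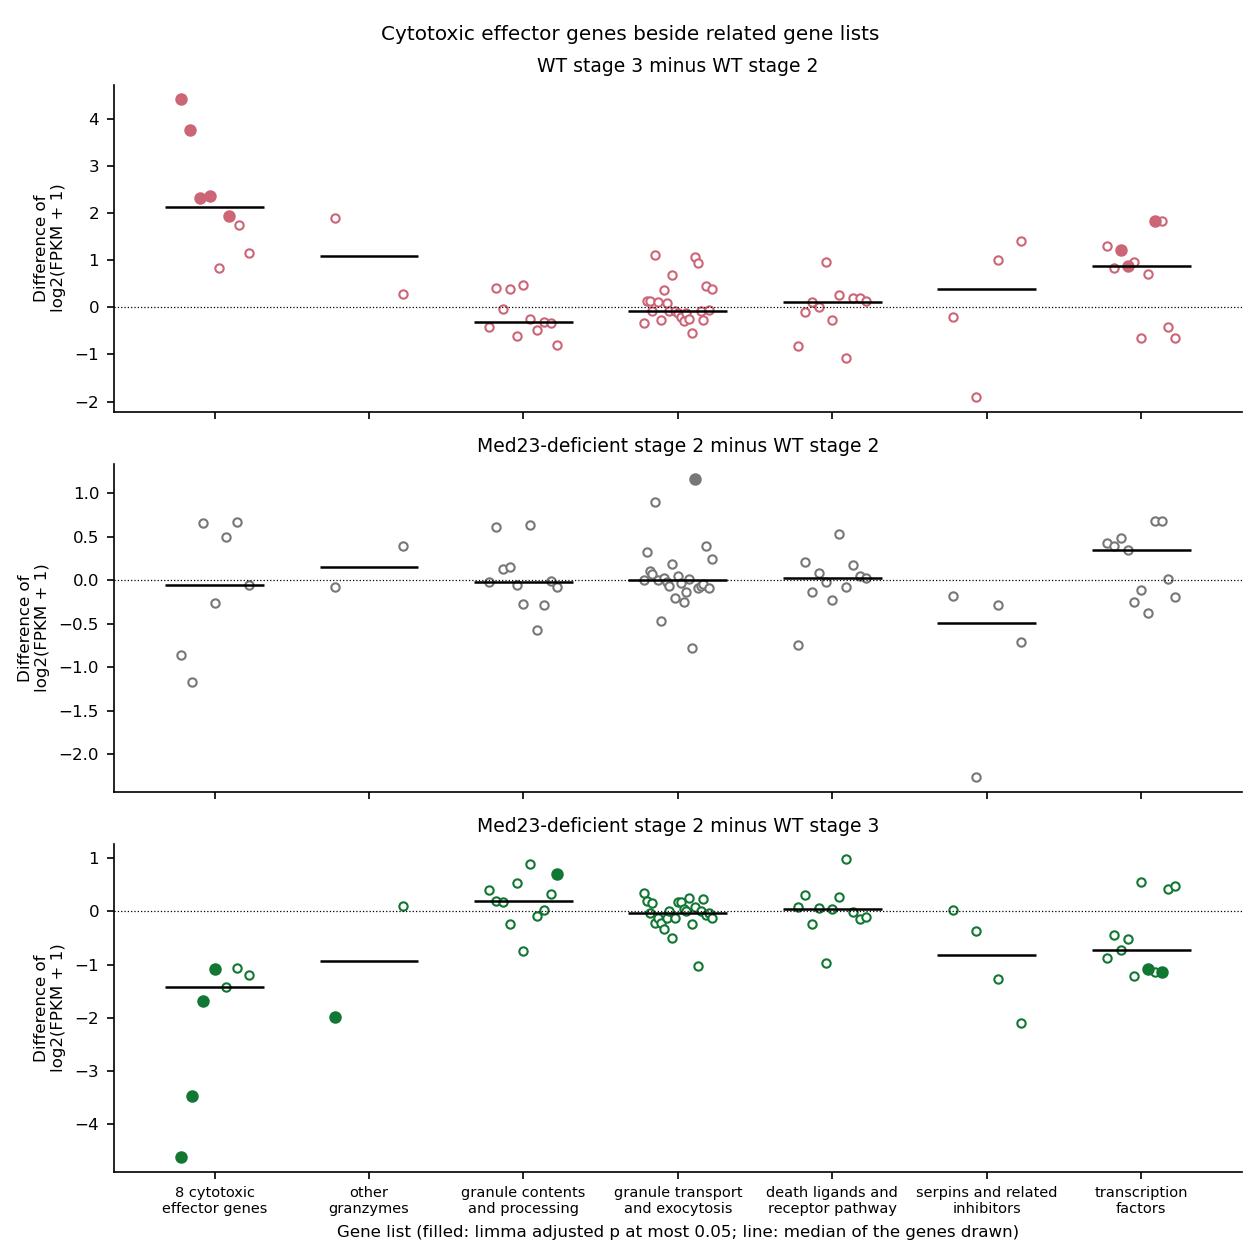
Differences in log2(FPKM + 1) of the 8 genes and of 6 lists of pathway genes in the 3 comparisons, with each point a gene (filled at a limma adjusted p of at most 0.05) and the line the median of the genes drawn; genes listed at 0 in all libraries of a compared group, such as *Gzma* in *Med23*-deficient cells, are left out. Between WT stages the median is 2.12 for the 8 genes, 1.09 for the granzyme pair and 0.87 for the transcription factors, and it is between -0.31 and 0.11 for granule contents, transport and death ligand genes.

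*Med23*-deficient stage 2 was also set against WT stage 3, a comparison in which stage and genotype differ together and cannot be told apart. It shares libraries with both other comparisons, so its values are given beside theirs and not as further support. All 8 genes were lower in the deficient cells. By mean FPKM the difference was 29.0 times for *Prf1* and 27.9 times for *Gzmb*, against 6.31 and 14.6 times between WT stages, and *Gzma*, at 17.6 FPKM or more in WT stage 3, was listed at 0. The *Prf1* ratio rests on a deficient mean of 0.567 FPKM, near the floor. Its log2 difference of -3.48 became -4.65 with a pseudocount of 0.1. Mean *Nkg7* was 3.19 times lower, *Fasl* 2.60, *Serpinb6b* 2.24, *Serpinb9* 2.17 and *Ctsw* 2.11 times.

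*Gzma* (limma adjusted p 0.00408 over 20846 genes, lower in 3 of 3 libraries) and 4 other genes fell past an adjusted p of 0.05. The log2 difference was -4.62 ± 0.23 for *Gzmb* (SE; interval -5.18 to -4.06; adjusted p 0.00149), -3.48 ± 0.17 for *Prf1* (-3.89 to -3.07; adjusted p 0.00142), -1.69 ± 0.25 for *Nkg7* (-2.31 to -1.07; adjusted p 0.0440) and -1.08 ± 0.16 for *Ctsw* (-1.46 to -0.70; adjusted p 0.0405). *Fasl* at -1.43 ± 0.33 (adjusted p 0.161), *Serpinb9* at -1.07 ± 0.26 (0.171) and *Serpinb6b* at -1.20 ± 0.34 (0.264) did not pass in limma, though all 3 deficient libraries were below all 3 WT libraries. By adjusted p, 0 genes were higher and 5 lower, against 0.705% and 0.628% of all genes. By fold and unadjusted p they were 0 and 8, against 1.39% and 1.48%, and with groups that do not overlap 0 and 8, against 7.48% and 6.75%. The median over the 7 genes other than *Gzma* was -1.43, beside 0.00 over all genes. The count by adjusted p was 3 without *Med23*-deficient replicate 1, without replicate 2 and without WT stage 3 replicate 1, 2 or 3, and 5 without *Med23*-deficient replicate 3. *Gzma*, *Gzmb* and *Prf1* passed in each of these fits, *Nkg7* in none (adjusted p 0.0589 to 0.152), and *Ctsw* and *Fasl* only without *Med23*-deficient replicate 3 (0.0322 and 0.0316). Over all genes the 278 calls became 112, 121 and 174 without *Med23*-deficient replicates 1, 2 and 3, and 95, 76 and 72 without those of WT stage 3, with 18 in the Ballgown-style model. The number of the 8 genes that passed was also 3 in limma without a mean-variance trend and 0 in the Ballgown-style model, where 7 still met the fold and p rule and *Gzmb*, *Prf1* and *Nkg7* differed by -4.60, -3.48 and -1.69. With libraries scaled to the same sum 4 passed, and *Ctsw* was lost (-1.11; limma adjusted p 0.068). With *Gm23935* left out of that sum 4 passed too, and *Nkg7* was lost (-1.68; limma adjusted p 0.0722).

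Around them, *Gzmc* was at 0, 0.69 and 0 FPKM in the deficient cells and fell by 1.98 relative to WT stage 3 (SE 0.31; limma adjusted p 0.0483), the 1 call among the granzyme pair. *Igf2r*, a receptor that sorts enzymes with mannose phosphate tags to lysosomes and granules, rose by 0.71 ± 0.10 (adjusted p 0.0312), from 10.3, 10.2 and 10.4 FPKM in WT stage 3 to 16.5, 17.2 and 19.0. WT stage 2 cells had 19.2, 14.7 and 22.6, around the deficient values. It was the 1 call among 11 granule content genes (median 0.20), of which 5 had an unadjusted p of at most 0.05, beside 10.2% of all genes: *Ctsb*, *M6pr*, *Igf2r* and *Lamp1* higher and *Ctsd* lower, named after their values were seen. *Id2*, at 179, 221 and 215 FPKM in the deficient cells, differed from WT stage 3 by -1.08 ± 0.13 (adjusted p 0.0220), and *Stat4*, at 10.4, 10.8 and 13.9, by -1.15 ± 0.14 (adjusted p 0.0230). These were the 2 calls among 11 transcription factors fitted (median -0.73), of which 10 had an unadjusted p of at most 0.05, 7 lower and 3 higher. The 3 higher, named after their values were seen, were *Runx1*, *Stat5a* and *Stat5b*. The calls of *Gzmc*, *Igf2r*, *Id2* and *Stat4* were all lost in the Ballgown-style model. That of *Gzmc* was lost too with a pseudocount of 0.1, a common upper quartile or a common sum without *Gm23935*, that of *Igf2r* with a common sum, with or without *Gm23935*, and with all 9 libraries in 1 fit, that of *Id2* with a common sum without *Gm23935* and that of *Stat4* with all 9 libraries in 1 fit. The 4 calls were also lost in each fit that leaves out a library, except for *Stat4* without *Med23*-deficient replicate 3, with adjusted p of up to 0.244, 0.135, 0.232 and 0.185 over all alternatives. The differences themselves ran from -4.25 to -1.85 for *Gzmc*, from 0.66 to 0.76 for *Igf2r*, from -1.14 to -0.98 for *Id2* and from -1.27 to -1.08 for *Stat4*. *Zfp683*, at 63.4, 55.9 and 85.0 FPKM, *Runx3*, at 48.8, 55.9 and 56.1, and *Bhlhe40*, at 5.16, 11 and 12.5, were not called, with adjusted p of 0.167, 0.0553 and 0.236. Lists of transport (median -0.03), death ligand (0.04) and serpin genes (-0.36, or -0.82 without *Serpinb6c*) had 0 calls in limma and in the Ballgown-style model, and 2, 2 and 1 genes at an unadjusted p of at most 0.05. Named after their values were seen, these were *Unc13d* (higher) and *Sytl3* (lower), *Tnfsf10* (lower) and *Lta* (higher), and *Serpina3g* (lower). Of the serpins, *Serpina3g* had 11.3, 4.2 and 8.15 FPKM in WT stage 3 libraries and 0.47, 0.34 and 2.69 in the deficient cells (adjusted p 0.176).

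Across the 9 libraries the 8 genes followed each other. Correlated with the mean of the other 7 (Pearson, on standardised log2(FPKM + 1)), *Gzmb* gave 0.96, *Gzma* 0.93, *Nkg7* 0.92, *Fasl* 0.91, *Prf1* and *Serpinb6b* 0.90, *Ctsw* 0.88 and *Serpinb9* 0.87. These describe 9 libraries in 3 groups and largely restate that stage 3 is apart.

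Of 11770 other genes with a mean of at least 1 FPKM, whose median correlation with the mean of the 8 genes was -0.02, the 8 named genes most like them were *Ctla2a* (0.990), *Fgl2* (0.987), *Dennd4a* (0.987), *Tm6sf1* (0.984), *Il2rb* (0.983), *Chsy1* (0.982), *Abcb1a* (0.977) and *Ifngr1* (0.977), with 1 unnamed gene model as like as these. They were chosen for their pattern over these same libraries, so their levels are a description. *Fgl2*, a secreted fibrinogen-like protein, had 17.1 ± 2.75 FPKM (SD, n = 3) in WT stage 2, 90.2 ± 13.2 in WT stage 3 and 20.1 ± 4.29 in the deficient cells. *Il2rb*, a receptor chain for interleukins of T and NK cells, had 121 ± 15.6, 311 ± 33.5 and 129 ± 30.0, and *Ifngr1*, a chain of the interferon gamma receptor, 25.0 ± 0.716, 106 ± 15.7 and 30.6 ± 10.9. *Ctla2a*, which resembles the propeptide of a cathepsin, had 24.1 ± 3.33, 46.1 ± 3.56 and 23.4 ± 2.93. The 8 genes differed between WT stages by 0.92 (*Ctla2a*) to 2.33 (*Fgl2*), between the deficient cells and WT stage 3 by -0.95 (*Ctla2a*) to -2.12 (*Fgl2*), and between the stage 2 groups by -0.24 (*Chsy1*) to 0.23 (*Abcb1a* and *Ifngr1*).

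**Figure D5:**
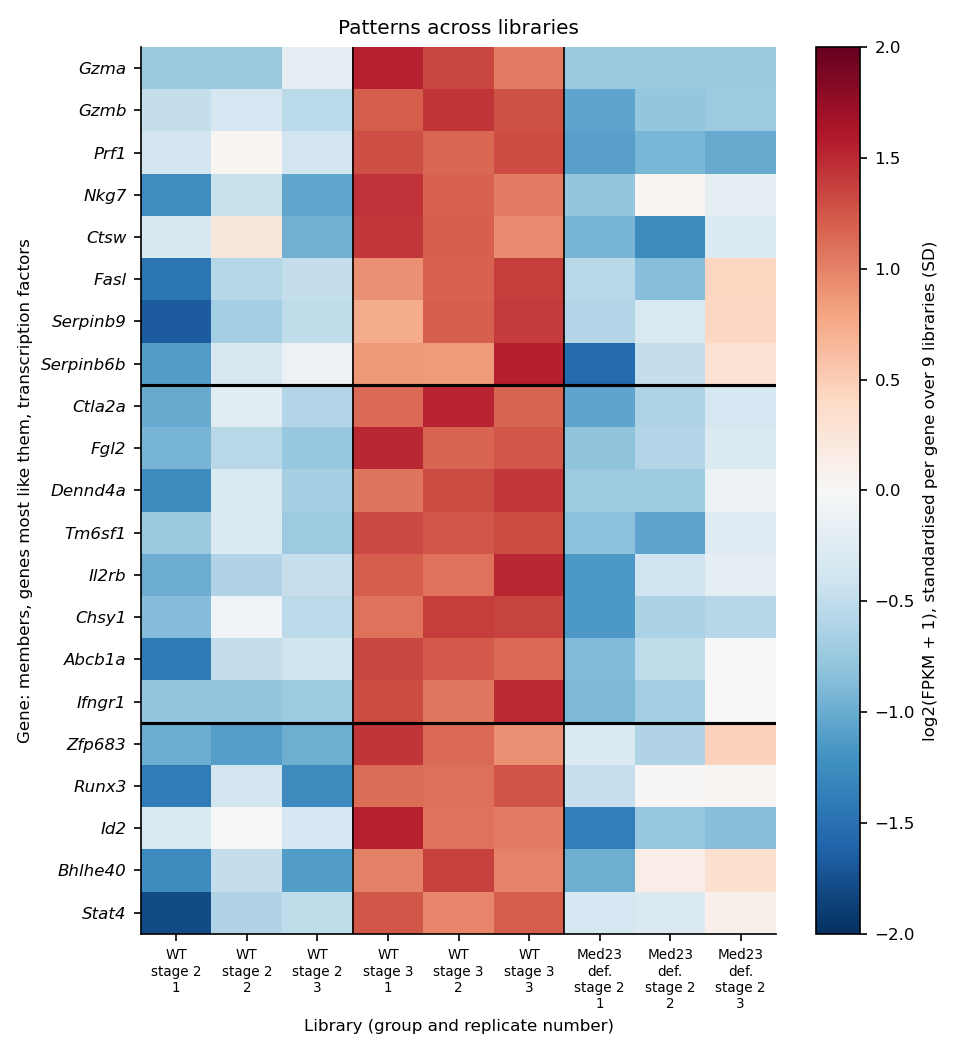
Levels of the 8 genes, of the 8 genes most like them and of 5 transcription factors, as log2(FPKM + 1) standardised per gene over the 9 libraries. The 3 WT stage 3 columns are high in every gene, and *Gzmb* and *Prf1* are lowest in the *Med23*-deficient columns.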

How the data were processed

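According to the methods of the study, a stranded total RNA kit was used for the libraries, reads were trimmed with Trimmomatic 0.36 and aligned to mm10 with HISAT2, and GENCODE vM12 genes were quantified with StringTie. The authors deposited FPKM with 2 decimals, which were used here as given. Each comparison was fitted with limma 3.58.1 in R 4.3.3 (lmFit, eBayes with a mean-variance trend) on log2(FPKM + 1), over the 6 libraries compared and all genes above 0 in at least 1 of them, and p was adjusted after Benjamini-Hochberg over those genes. Means, counts and figures come from Python 3.11.15 with pandas 2.3.3, numpy 2.4.6, scipy 1.17.1 and matplotlib 3.10.9. Genes were named by rule: the 8 members, the called genes and the most abundant gene of each list, and the 8 genes most correlated with the members among those with a mean of at least 1 FPKM. Outside that rule, list genes with an unadjusted p of at most 0.05 were named after their values were seen. *Klrb1c*, *Zbtb16* and the other markers come from the marker lists. The members and lists were chosen with earlier results of these data known. Alternatives were a pseudocount of 0.1, a minimum mean FPKM of 1, 3 other scalings, limma without a trend, an ordinary linear model of each gene with library size as a covariate (Ballgown-style, as in that package), all 9 libraries in 1 fit, replicate number as a block, and each library left out. Promoters are from RefSeq (GRCm38.p6), and shared stretches of 50 bases were counted in GENCODE vM21 transcripts. Read depth is unknown, so no counting error is given.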

Additional observations from a re-analysis of the deposited data

How the results depend on the processing

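Of the 8 genes' differences under the alternatives, 297 kept their direction and their side of the threshold, 50 had the same direction but no longer passed, 6 passed newly and 5 changed sign. The 297 include genes not called in the main fit that stayed uncalled, while the 50 all fell on called genes. Of 15 alternatives each, the calls between WT stages held in 8 for *Gzma*, 14 for *Gzmb*, 9 for *Prf1*, 9 for *Nkg7* and 7 for *Fasl*. Against WT stage 3 they held in 14 each for *Gzma*, *Gzmb* and *Prf1*, 5 for *Nkg7* and 6 for *Ctsw*. Of the counts over all genes, 58 stayed within 1.5 times and 32 did not. *Serpinb6b* between the stage 2 groups (-0.05) changed sign to 0.05 with a common upper quartile and to 0.44 in the Ballgown-style model (adjusted p 0.823 there, 0.795 to 1 over the alternatives), and to 0.03, 0.10 and 0.30 without WT stage 2 replicates 2 and 3 and without *Med23*-deficient replicate 1 (range -0.35 to 0.30 over the libraries left out). The cause was not tested. Genes past the adjusted p between WT stages (5) were 8 with a mean FPKM of at least 1, where fewer genes are tested, 0 in the Ballgown-style model and 1 to 4 with a library left out. Between *Med23*-deficient stage 2 and WT stage 3 (5) they were 3 without a trend, 0 in the Ballgown-style model and 3 to 5 with a library left out. Past the fold and p thresholds between the stage 2 groups (1) were 3 in the Ballgown-style model and 0 to 1 with a library left out, the 0 without WT stage 2 replicate 2, where *Prf1* falls short of the fold threshold. The cause of the other changes was not tested.

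With replicate number as a block, the calls were 1 between WT stages, 0 between the stage 2 groups and 3 between *Med23*-deficient cells and WT stage 3, and 19, 0 and 42 over all genes, and the calls named in the pathway lists were all lost. Deviations of libraries with the same number correlated at 0.0845, 0.031 and 0.161 between WT stages, 0.0346, 0.00429 and 0.144 between the stage 2 groups and 0.0474, 0.0423 and 0.272 in the third comparison. Each library correlated best with its own number between WT stages, not in the other comparisons. Whether WT libraries with the same number share animals is not stated, and comparisons across genotypes cannot decide it. The main fits treat libraries as unpaired, which is an assumption. With the block, limma adjusted p between WT stages was 0.0139 for *Gzmb*, 0.121 for *Gzma*, 0.101 for *Prf1*, 0.0968 for *Nkg7* and 0.0744 for *Fasl*.

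Scaling every library to the same sum moved the median of genes averaging 1 FPKM or more from -0.05 to -0.13 between WT stages and to -0.15 between the stage 2 groups. Between WT stages all 8 genes had differences above 0 under each scaling, and against WT stage 3 the deficient cells had 0. The calls of *Fasl* between WT stages and of *Ctsw* and *Nkg7* against WT stage 3 did not hold under every scaling. Between the stage 2 groups 3 were above 0, and 4 with a common upper quartile. All genes called there numbered 14 higher and 30 lower, 5 and 26 on the common sum, 2 and 25 on that sum without *Gm23935* (62.2 to 71.9% of the sum of a library), and 21 and 27 with a common upper quartile. With a library left out, they numbered 1 to 8 in all. Between WT stages all genes called were 157 higher and 189 lower, and 86 and 138 on the common sum. They were 116 and 130 on that sum without *Gm23935*, and 161 and 135 with a common upper quartile. *Gzma* could not be fitted between the stage 2 groups with a mean FPKM of at least 1 or without WT stage 2 replicate 3.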
